A study of Homo sapiens with 59 samples.

Results

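The cells of this comparison were THP-1 macrophages labelled as given only the vehicle DMSO, collected 3 h or 1.5 h after its addition. THP-1 is a line of human monocytic leukaemia cells, and each array here held RNA of cells that had been differentiated with PMA, a phorbol ester, at 10 ng/ml for 40 h and then rested in PMA-free medium for 2 h. Members were chosen by label alone, as all arrays marked DMSO 3 h (6) and all arrays marked DMSO 1.5 h (6), that is 12 of the 59 arrays of the series. The same interval in cells given 1 µM rosiglitazone (RSG), a drug that binds and activates PPARG, was measured on 11 other arrays, 6 at 3 h and 5 at 1.5 h. Nothing in the labels says whether replicates were separate cultures, so each p-value measures the spread between these arrays, which may be technical. THP-1 is 1 leukaemic line, and no array of cells without DMSO was analysed here, so an effect of DMSO and one of time, washing or the withdrawal of PMA cannot be told apart.

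PMA activates protein kinase C, and through it MAP kinases and NF-kB, which switch on a wave of early genes in monocytic cells. Many of their transcripts, such as those of cytokines, dual-specificity phosphatases and Kruppel-like factors, are short-lived and encode inhibitors of the same signals. Chaperones and metallothioneins belong to other programmes. Heat shock factor drives chaperone genes when unfolded proteins accumulate, and the zinc sensor MTF1 drives metallothionein genes when free zinc or other metals rise.

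Signals were read on Illumina bead arrays, which report 1 fluorescence intensity per probe. Mean raw signal ran from 329 to 914 over the 12 arrays and 12182 to 13633 probes were detected, with no array apart from the rest (median correlation with the other arrays 0.979 to 0.989). On 2 arrays the level of PDK4, a gene that ligands of PPARG induce, went against the DMSO label, with 8.21 on DMSO 3 h replicate 4 and 6.88 on replicate 1, and 4.72 to 5.22 on the other 4. Calls without these arrays are given with the targets of PPARG. A background over 75 intensity units was found on 3 of the 6 arrays at 3 h (replicates 3, 5 and 6) and on 0 of 6 at 1.5 h. The low-background 3 h arrays were thus replicates 1, 2 and 4, among them both with high PDK4. In counts on low-background arrays alone, background and doubtful labels therefore cannot be told apart. Genes of macrophages were present as labelled, since 18 of 24 macrophage markers were detected on at least 50% of the arrays, among them CSF1R at a log2 intensity of 14.10 at 3 h and 14.24 at 1.5 h. MRC1, FCGR3A and C1QA were detected on 0 arrays. Of markers of other lineages, 3 of 15 erythroid, epithelial, fibroblast and endothelial ones and 6 of 14 of lymphocytes reached that share. So did 8 of 15 markers of dendritic maturation and 7 of 12 of granulocytes, so many such markers were present. Detected on 0 arrays were 10, 6, 7 and 4 members of these lists in that order, among them CD3E, KRT19, COL1A2 and HBB.

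The comparison asked which transcripts changed between 1.5 and 3 h in cells labelled as given no ligand. Among the genes called higher were all 7 metallothioneins tested, 9 of 17 chaperones, 10 of 23 genes of S phase entry and DNA replication and 9 of 27 of ribosome biogenesis. Among those called lower were 10 of 21 feedback inhibitors of MAP kinases, 9 of 19 Kruppel-like and related factors, 7 of 20 cytokines and 8 of 26 genes of the NF-kB pathway. Values are log2 intensities, so a difference of 1 is a doubling, and differences are 3 h minus 1.5 h with the standard error (SE) of the fit. A gene was called when limma's moderated test gave it an adjusted p under 0.05. Of 10179 genes tested, 2588 (25.4%) were called, 1360 of them higher (13.4%) and 1228 lower (12.1%). Most called changes were small, with a median size of 0.44 on the log2 scale. The larger ones were more often falls, as 217 called genes were at least 1.5-fold higher (2.13%) and 361 at least 1.5-fold lower (3.55%), and 5 rose and 21 fell by 2-fold or more. On 672 genes (6.60%) each 3 h array lay above each 1.5 h array, and on 604 (5.93%) below. The median over all genes was 0.02.

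**Figure D1:**
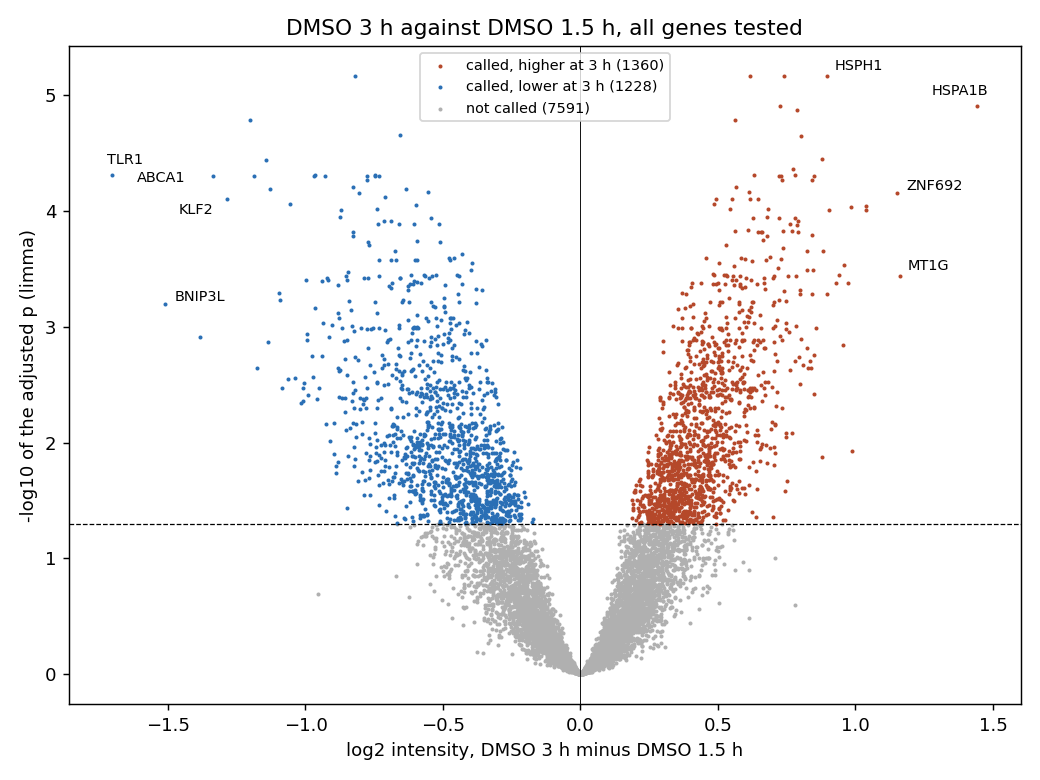
Each point is 1 of the 10179 genes tested, with the log2 difference of DMSO 3 h minus DMSO 1.5 h on the x axis and the -log10 of the limma adjusted p on the y axis. Points above the dashed line (adjusted p of 0.05) were called, 1360 higher at 3 h (right) and 1228 lower (left), and the falls reach further from 0 (TLR1, -1.70) than the rises (HSPA1B, 1.44).

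The largest rise of any gene was that of HSPA1B, which encodes the inducible chaperone HSP70. It read 9.90 to 10.27 (median 10.04) at 3 h, against 8.26 to 9.01 (median 8.60) at 1.5 h, a difference of 1.44 (SE 0.19, limma adjusted p = 1.23e-05) or 2.72-fold. Its near-identical neighbour HSPA1A was higher by 0.80 (SE 0.11), with 7.94 to 8.25 at 3 h and 6.94 to 7.55 at 1.5 h, but the probes of the pair may share transcripts and were not told apart. HSPH1, a nucleotide exchange factor of HSP70, read 10.98 to 11.23 (median 11.18) at 3 h and 9.96 to 10.62 (median 10.25) at 1.5 h, a difference of 0.90 (SE 0.11, adjusted p = 6.81e-06). In none of the 3 did the groups overlap.

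Of 3 J-domain co-chaperones tested in the list, which hand clients to HSP70, 2 rose. DNAJA1 was higher by 0.65 (SE 0.10) and DNAJB1 by 0.58 (SE 0.12), while DNAJB6 had -0.37 (adjusted p = 0.0993) and was not called. The constitutive HSP70 HSPA8 rose by 0.56 (SE 0.08) although it already read 12.80 to 13.01 at 1.5 h. In all, 9 of 17 chaperone genes tested rose and 2 fell, with a list median of 0.29. Both that fell were borderline. HSPA4, an HSP110 relative of HSPH1, was lower by 0.51 (log2 -0.51, adjusted p = 0.0491) and kept its call in 2 of the 12 fits that each left out 1 array, and HSP90AA1, the inducible HSP90, had -0.27 (adjusted p = 0.0421) and kept it in 4. The 9 rises stood without DMSO 3 h replicate 4, and 7 were called on low-background arrays.

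Promoters of chaperone genes carry heat shock elements, inverted repeats of nGAAn. Windows of a pair that rose and that hold a match to that element are shown. HSPH1, which rose more than DNAJA1, had no match and is not shown. The windows run from 250 bases before to 50 after the start of the gene in RefSeq (GRCh38.p14), and the capitals mark GAANNTTC, which reads the same on both strands. HSPA1B lies at chr6:31827488-31827787 on the plus strand, with 1 match, and DNAJA1 at chr9:33025023-33025322 on the plus strand, with 2.
HSPA1B: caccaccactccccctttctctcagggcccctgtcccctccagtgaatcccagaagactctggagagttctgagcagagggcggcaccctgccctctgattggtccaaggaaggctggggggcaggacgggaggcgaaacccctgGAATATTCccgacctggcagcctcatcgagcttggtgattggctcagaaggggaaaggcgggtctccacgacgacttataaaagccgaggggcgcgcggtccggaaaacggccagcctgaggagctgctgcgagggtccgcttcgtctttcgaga
DNAJA1: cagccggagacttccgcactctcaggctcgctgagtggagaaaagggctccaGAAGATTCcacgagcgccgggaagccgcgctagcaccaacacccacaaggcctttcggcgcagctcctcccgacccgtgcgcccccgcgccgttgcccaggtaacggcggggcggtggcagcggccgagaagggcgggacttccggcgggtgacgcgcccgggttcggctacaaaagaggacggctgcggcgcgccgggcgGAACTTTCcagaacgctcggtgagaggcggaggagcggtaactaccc
These letters, searched after the values had been seen, were present in the windows of 6 of the 9 chaperone genes that rose (66.7%). The windows of HSPH1, DNAJB1 and BAG3 held none. Among the 6, the window of HSPA1A and that of another HSP70 gene had equal counts of matches for every element searched here. Whether these windows overlap was not checked, so the 6 may not be independent and the share may be too high. The letters were present in 4.74% of the windows of genes tested and in 6.87% of all 27305 windows. A match is a run of letters and was not tested as a bound site.

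Metallothioneins, small cysteine-rich proteins that bind zinc and copper, rose as a family. All 7 members tested were called higher, with a family median of 0.84 and changes of 0.80 to 1.16. MT1G read 9.66 to 10.22 (median 9.88) at 3 h, against 8.15 to 9.19 (median 8.93) at 1.5 h, a difference of 1.16 (SE 0.21, adjusted p = 0.000362) or 2.24-fold. MT2A, the most widely used member, read 11.21 to 11.79 at 3 h and 10.38 to 10.93 at 1.5 h, a difference of 0.84 (SE 0.16, adjusted p = 0.000523). MT1F (0.84), MT1H (0.84), MT1E (0.85), MT1M (0.88) and MT1X (0.80) had differences of the same order. The groups overlapped only for MT1H. When all 59 arrays shared 1 estimate of the spread, MT1F alone kept its call (adjusted p = 0.0284), and the other 6 had adjusted p of 0.0668 to 0.416 with the same differences. These genes form a cluster of close copies whose probes may share transcripts, so the 7 are not independent.

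Windows of MT2A (chr16:56608334-56608633, plus strand) and MT1X (chr16:56682220-56682519, plus strand) are shown because the family moved as 1, with the core of the metal response element, TGCNCNC on either strand, in capitals. MT2A had 8 matches and MT1X 4.
MT2A: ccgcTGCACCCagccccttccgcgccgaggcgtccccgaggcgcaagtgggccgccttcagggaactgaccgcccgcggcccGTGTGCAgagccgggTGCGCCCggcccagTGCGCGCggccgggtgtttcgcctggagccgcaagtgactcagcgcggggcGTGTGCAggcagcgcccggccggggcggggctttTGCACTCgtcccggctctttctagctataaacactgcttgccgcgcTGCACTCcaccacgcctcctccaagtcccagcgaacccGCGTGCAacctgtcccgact
MT1X: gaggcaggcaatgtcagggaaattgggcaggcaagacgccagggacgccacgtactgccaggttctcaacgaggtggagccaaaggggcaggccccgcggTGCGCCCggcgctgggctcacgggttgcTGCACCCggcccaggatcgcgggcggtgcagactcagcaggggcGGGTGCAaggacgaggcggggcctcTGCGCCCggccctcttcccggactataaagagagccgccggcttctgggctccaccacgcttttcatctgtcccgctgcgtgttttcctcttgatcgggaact
RefSeq windows were at hand for 3 of the 7 genes and each of them held the letters. So did 63.2% of the windows of genes tested, so a single match says little. The number of matches per window was not compared with that of genes tested, so whether 8 or 4 is unusual was not tested.

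The metallothioneins were the whole of the rise in the list they belong to, the genes of metals and of the antioxidant factor NRF2. Of its 19 genes tested 7 rose and 4 fell, and the 4 that fell were not metallothioneins. GCLC, the catalytic subunit of the first step of glutathione synthesis, had -0.77 (SE 0.22, adjusted p = 0.0131), at 4.61 to 5.20 at 3 h and 5.01 to 6.09 at 1.5 h, and it was detected on 1 of the 3 h arrays and 5 of the 1.5 h arrays.

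Most enzymes of cholesterol synthesis that were called rose. MVK, mevalonate kinase, read 6.58 to 7.01 (median 6.94) at 3 h, against 5.38 to 6.46 (median 5.75) at 1.5 h, a difference of 1.04 (SE 0.17, adjusted p = 9.04e-05). MVD, which acts further down the same branch, was higher by 0.80 (SE 0.15) and LSS, which closes the sterol rings, by 0.70 (SE 0.16). STARD4, a carrier of cholesterol between membranes, read 4.71 to 5.62 (median 5.07) at 3 h and 5.67 to 6.68 (median 6.25) at 1.5 h, a difference of -1.07 (SE 0.25, adjusted p = 0.00283), and was detected on 2 of 6 arrays at 3 h. Over the list 7 of 19 genes rose and 3 fell. The other two that fell were enzymes, CYP51A1, which demethylates lanosterol, with -0.59 (adjusted p = 0.0285), and SQLE, squalene epoxidase, with -0.32 (adjusted p = 0.0339). They stayed called in 7 and 6 of the 12 leave-one-out fits. INSIG1, the feedback sensor of the pathway, had -0.34 (adjusted p = 0.0756) and was not called. It was called in a fit of the 12 arrays alone (adjusted p = 0.0294). With the sets of replicates described below as a block in that fit, its adjusted p was 0.0219.

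Of 23 genes for entry into S phase and for replication of DNA 10 were called higher and 1 lower, with a list median of 0.30. CCNE1, the cyclin that drives CDK2 at the G1/S boundary, read 8.52 to 8.83 (median 8.64) at 3 h, against 7.75 to 8.10 (median 7.90) at 1.5 h, a difference of 0.73 (SE 0.11, adjusted p = 5.41e-05). CDC25A, the phosphatase that activates CDK2, was higher by 0.71 (SE 0.16), TK1, thymidine kinase, by 0.68 (SE 0.11), and GINS2 and MCM5, both parts of the replicative helicase, by 0.62 (SE 0.11) and 0.59 (SE 0.13). The groups overlapped in none of these 5. Genes of mitosis, further on in the cycle, had 3 of 26 called higher, 1 lower and a median of -0.01. The sign of that median depended on the sets of replicates compared, as described below.

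Ribosome biogenesis genes and other targets of MYC had 9 of 27 called higher and 0 lower, with 21 of the 27 above 0 and a median of 0.20. SRM, spermidine synthase, was higher by 0.76 (SE 0.16), with 9.66 to 10.39 at 3 h and 8.82 to 9.61 at 1.5 h. CAD, which begins pyrimidine synthesis, had 0.62 (SE 0.16), and NOP16 and PPAN, both nucleolar proteins of the large ribosomal subunit's assembly, had 0.62 (SE 0.15) and 0.61 (SE 0.15). Each was called in all 12 fits that left out 1 array.

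Other large rises fell in no common list. ZNF692, a zinc finger protein, read 8.35 to 8.80 (median 8.71) at 3 h and 7.01 to 7.86 (median 7.44) at 1.5 h, a difference of 1.15 (SE 0.18, adjusted p = 7.05e-05). CRIP2, a LIM domain protein, was higher by 1.04 (SE 0.17), and ATRIP, the partner of the checkpoint kinase ATR, by 0.96 (SE 0.17). ASF1B, a histone chaperone of replicating cells, had 0.94 (SE 0.17). DGKZ, which converts the PMA-like lipid diacylglycerol to phosphatidic acid, had 0.99 (SE 0.28, adjusted p = 0.0119), with 7.12 to 7.97 at 3 h and 5.95 to 7.11 at 1.5 h. In all 5 the lowest 3 h array was above the highest 1.5 h array.

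**Figure D2:**
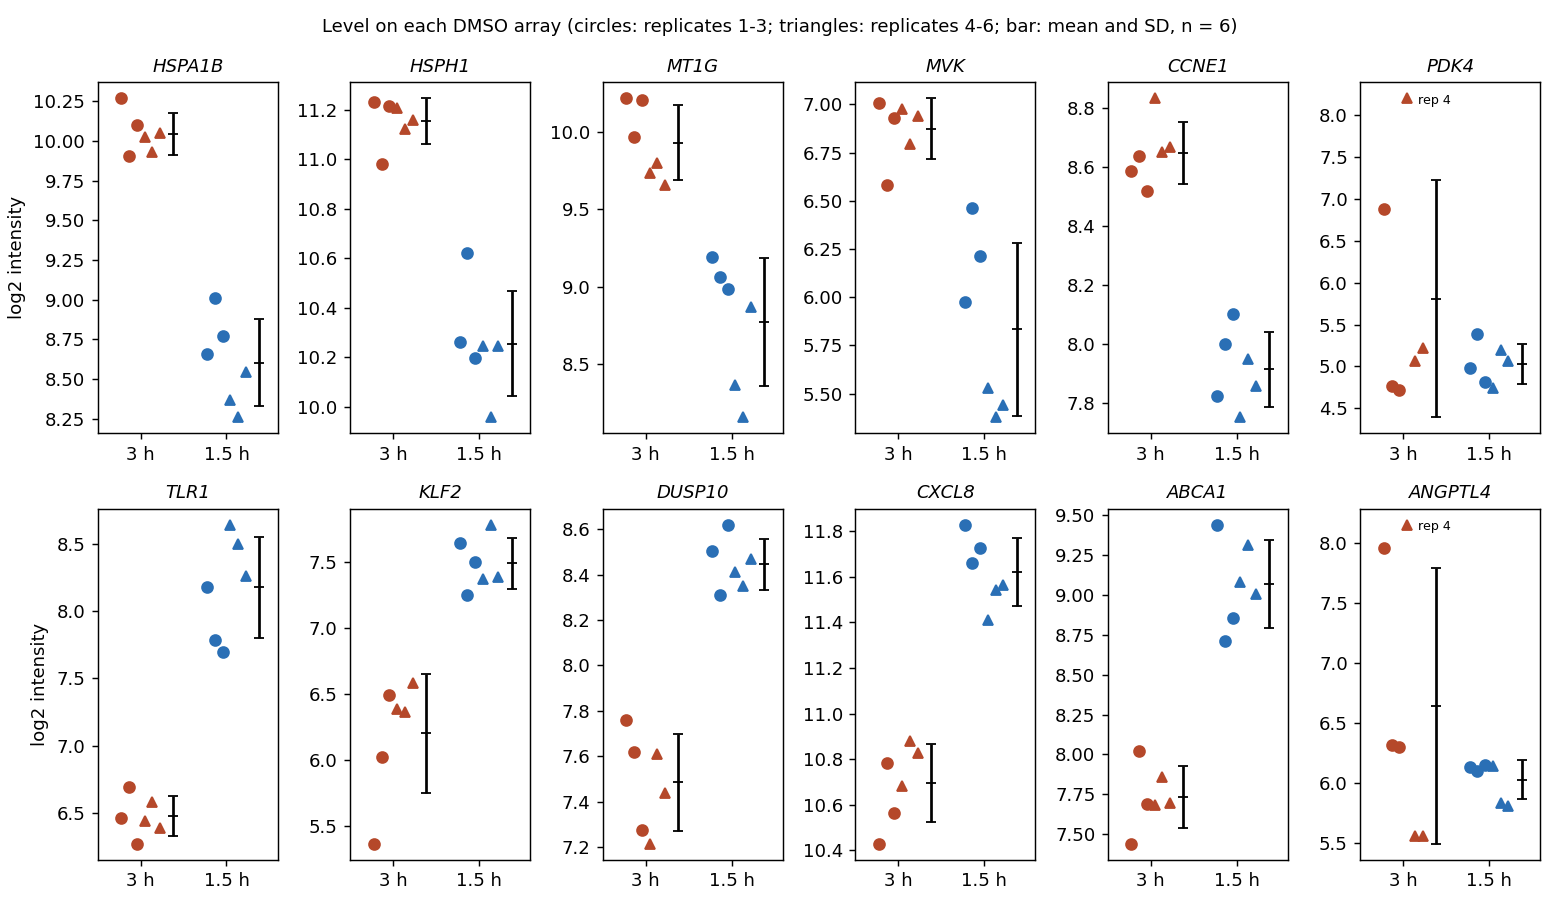
Log2 intensity of 12 genes on each DMSO array, 3 h left of 1.5 h, with the mean and SD of 6 arrays beside the points, circles for replicates 1 to 3 and triangles for replicates 4 to 6. HSPA1B, HSPH1, MT1G, MVK and CCNE1 lie higher at 3 h and TLR1, KLF2, DUSP10, CXCL8 and ABCA1 lower with no overlap, while PDK4 and ANGPTL4 are high only on 3 h replicates 1 and 4.

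The largest fall was that of TLR1, a receptor for bacterial lipopeptides that pairs with TLR2. It read 6.27 to 6.70 (median 6.45) at 3 h, against 7.70 to 8.64 (median 8.22) at 1.5 h, a difference of -1.70 (SE 0.25, adjusted p = 4.84e-05), which is 3.25-fold lower. BNIP3L, a mitochondrial protein that marks the organelle for autophagy, read 5.16 to 6.12 at 3 h and 6.41 to 7.72 at 1.5 h, a difference of -1.51 (SE 0.30). ABCA1, the exporter of cholesterol to apolipoproteins, read 7.44 to 8.02 (median 7.69) at 3 h and 8.71 to 9.44 (median 9.05) at 1.5 h, a difference of -1.34 (SE 0.20, adjusted p = 5.03e-05). These 3 were lower on each 3 h array than on any 1.5 h array.

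Transcriptional repressors and other regulators were among the next. BCOR, a corepressor of BCL6, fell by 1.20 on the log2 scale (SE 0.16) and IRF2BPL, a partner of the interferon regulator IRF2, by 1.19 (SE 0.18). ACKR3, a scavenging receptor for CXCL12, fell by 1.15 (SE 0.16), with 8.18 to 8.76 at 3 h and 9.53 to 9.86 at 1.5 h. B3GNT5, a glycolipid synthase, had -1.38 (SE 0.29). LYPLA1 (-1.18), TSN (-1.14) and ZNF85 (-1.10) also passed but were near background at 3 h, detected on 1, 3 and 1 of the 6 arrays, so the size of their fall is uncertain.

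Kruppel-like and related factors, transcription factors that answer serum and shear stress, had 9 of 19 lower, 0 higher and a median of -0.34, and 4 were lower on low-background arrays alone. KLF2 read 5.37 to 6.58 (median 6.37) at 3 h, against 7.25 to 7.78 (median 7.44) at 1.5 h, a difference of -1.28 (SE 0.20, adjusted p = 7.92e-05) or 2.44-fold lower. KLF10, an answer to TGF-beta, had -0.65 (SE 0.18), and BHLHE40, a repressor of clock genes, had -0.81 (SE 0.18). KLF4 had -0.63 (SE 0.20, adjusted p = 0.0184), with 10.17 and 9.70 on 3 h replicates 4 and 1, 9.08 to 9.26 on the other 4, and 9.82 to 10.36 at 1.5 h. Without that replicate 4 its difference was -0.78, and without 1.5 h replicate 5 it was -0.57 and not called (adjusted p = 0.0506).

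Feedback inhibitors of MAP kinases had the lowest median of the lists, -0.40, with 10 of 21 lower and 0 higher. DUSP10, a phosphatase of JNK and p38, read 7.22 to 7.76 (median 7.52) at 3 h, against 8.31 to 8.62 (median 8.44) at 1.5 h, a difference of -0.96 (SE 0.24, adjusted p = 0.00418). TRIB1, a pseudokinase that sends proteins to degradation, had -0.86 (SE 0.22) and RGS16, which shortens signals of G proteins, -0.85 (SE 0.20). DUSP1, the immediate early phosphatase of p38, had -0.71 (SE 0.25, adjusted p = 0.0389), and stayed called in 4 of the 12 leave-one-out fits. DUSP6, the phosphatase of ERK, had -0.57 (adjusted p = 0.0640) and was not called. The fall was not shared by all dual-specificity phosphatases. Of 19 genes tested whose names begin with DUSP, in the list or not, 2 were higher and 4 lower, with a median of -0.03.

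Immediate early transcription factors had 3 of 17 lower (1 on low-background arrays alone) and 0 higher, against 12.1% of all genes lower. EGR1 had -0.60 (SE 0.17), with 5.86 to 6.56 at 3 h and 6.60 to 7.20 at 1.5 h, and ATF3 -0.47 (SE 0.12). FOS had -0.12 (adjusted p = 0.706) and JUN 0.26 (adjusted p = 0.0804), neither called. In a fit of the 12 arrays alone JUN was called without a block (adjusted p = 0.0293). It was also called there with the sets of replicates as a block (adjusted p = 0.0239). Early genes of mRNA decay and growth arrest had 7 of 17 lower (2 on low-background arrays alone) and 0 higher, and SGK1, a kinase of ion transport that serum induces, had the lead with -0.77 (SE 0.17), at 9.25 to 10.29 at 3 h and 10.53 to 10.86 at 1.5 h.

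Of 20 cytokines and related factors 7 were lower and 0 higher, with a median of -0.19, and 4 were lower on low-background arrays alone. CXCL8, the chemokine that draws neutrophils, read 10.43 to 10.88 (median 10.73) at 3 h, against 11.41 to 11.83 (median 11.61) at 1.5 h, a difference of -0.93 (SE 0.25, adjusted p = 0.00688). F3, tissue factor, which starts coagulation, had -0.90 (SE 0.19), and HBEGF, a ligand of the EGF receptor, -0.74 (SE 0.12). IL1B had -0.53 (adjusted p = 0.0804) and was not called. In a fit of the 12 arrays alone IL1B was called without a block (adjusted p = 0.0183). It was also called there with the sets of replicates as a block (adjusted p = 0.0108). Of 7 other chemokines tested 3 were lower (1 on low-background arrays alone) and 0 higher, led by CCL20 with -0.70 (SE 0.19) and by CCL3L1 with -0.68 (SE 0.18), whose probe may also read its copy CCL3. The sign of the chemokine median depended on the sets of replicates compared, as described below.

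Of 26 genes of the NF-kB pathway and its feedback 8 were lower and 0 higher with a median of -0.11, and 3 were lower on low-background arrays alone. IRAK2, a kinase below Toll-like receptors, had -0.88 (SE 0.18), with 7.63 to 8.21 at 3 h and 8.58 to 8.93 at 1.5 h. CD83, a surface marker of activated antigen-presenting cells, had -0.83 (SE 0.14) and MAP3K8, which links NF-kB to ERK, -0.65 (SE 0.16). MAP3K8 stood at 7.88 on 3 h replicate 4 and at 6.50 to 6.95 on the other 5. The feedback enzyme TNFAIP3 had -0.35 (adjusted p = 0.0826) and was not called.

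Of 26 matrix proteins, proteases and integrins 11 were lower and 0 higher, with a median of -0.22. MMP12, the macrophage elastase, read 7.03 to 7.79 (median 7.53) at 3 h, against 8.09 to 8.41 (median 8.20) at 1.5 h, a difference of -0.77 (SE 0.21, adjusted p = 0.00919), and MMP10, a stromelysin, had -0.61 (SE 0.14). Macrophage markers had 6 of 18 lower (3 on low-background arrays alone) and 1 higher. FCGR1A, the high-affinity receptor for IgG, had -0.65 (SE 0.15), and CD14, the coreceptor for endotoxin, -0.41 (SE 0.12), while CSF1R, the receptor for the growth factor of macrophages, had -0.14 (adjusted p = 0.0832). In bulk RNA a smaller share of cells that express a gene and less of its RNA per cell cannot be told apart.

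Hypoxia and glycolysis genes split, with 5 of 24 higher and 7 lower. HIF1A, the oxygen-labile subunit of the hypoxia factor, read 7.92 to 8.31 at 3 h, against 8.60 to 9.0 at 1.5 h, a difference of -0.72 (SE 0.16). ERO1A, which oxidizes disulfide bonds in the endoplasmic reticulum, had -0.63 (SE 0.12). In the clock list CRY1, a repressor of the clock, had -0.80 (SE 0.17), with 5.83 to 6.58 at 3 h and 6.81 to 7.42 at 1.5 h, and CIART, another repressor, had 0.78 (SE 0.18) but was detected on 5 arrays at 3 h and 1 at 1.5 h. In the p53 list RRM2B, a subunit of ribonucleotide reductase, had -0.98 (SE 0.22) and BAX, a pore former of cell death, 0.52 (SE 0.13).

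**Figure D3:**
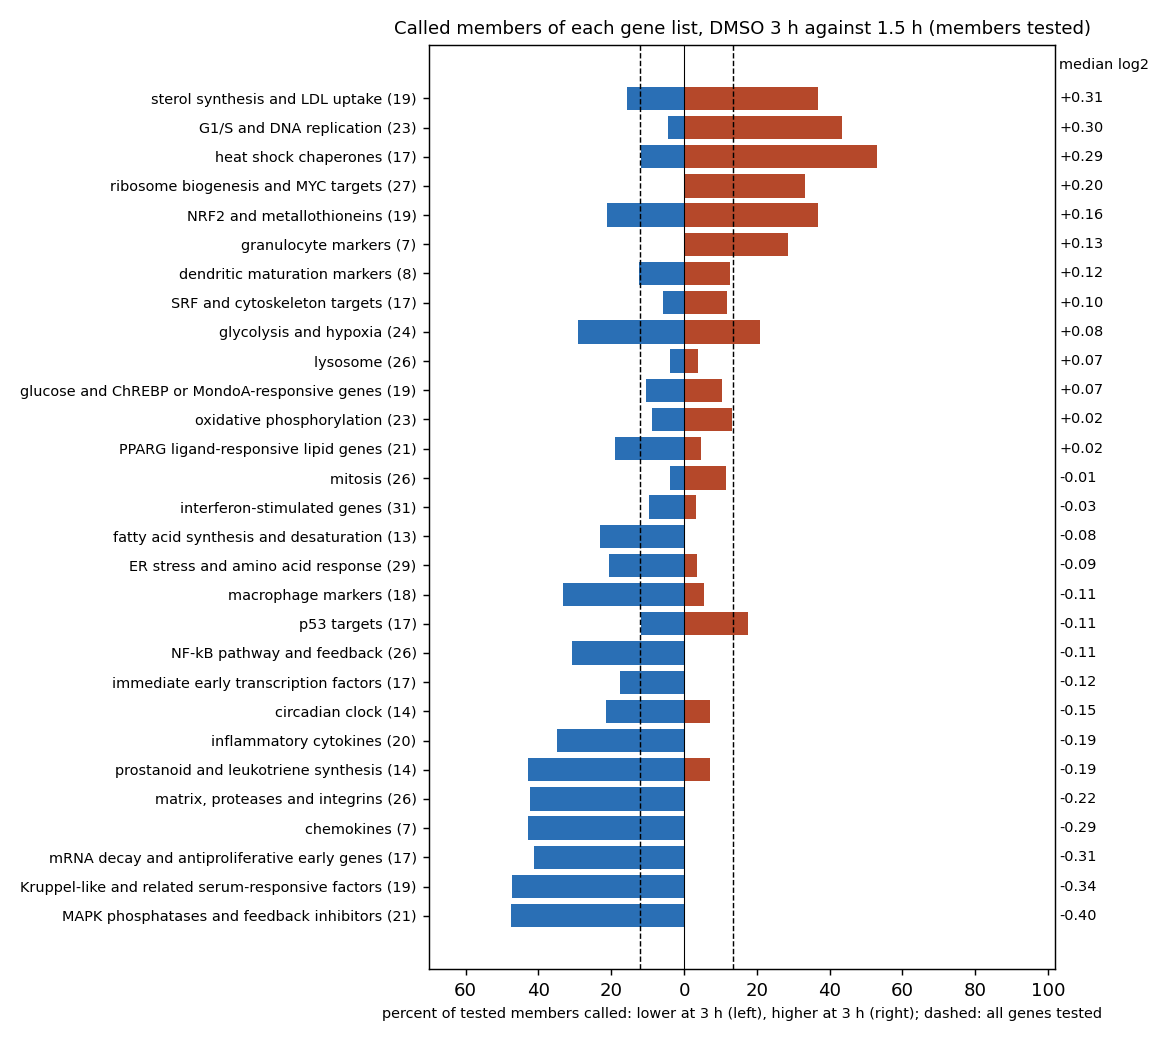
Percent of the tested members of each gene list that were called lower (left) or higher (right) at 3 h against 1.5 h, for lists with 7 or more members tested, ordered by the median log2 difference printed at the right. Dashed lines mark the 12.1% lower and 13.4% higher of all genes tested. Sterol, G1/S, chaperone and ribosome biogenesis genes lie at the top and feedback inhibitors of MAP kinases, with 10 of 21 lower, at the bottom.

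When all 59 arrays shared the estimate of the spread 1283 genes were called. Of the 79 called genes named, 37 lost their call there and kept their sign. Beside the 6 metallothioneins these were the chaperones HSPA4 and HSP90AA1, the sterol genes CYP51A1, SQLE and STARD4, the genes GINS2, MCM5, TK1 and NOP16 of replication and ribosome biogenesis, the regulators ATF3, BHLHE40, DUSP1, DUSP10, IRAK2, KLF4, MAP3K8, RGS16 and SGK1, the chemokines CCL20, CCL3, CCL3L1 and CXCL8, the surface and matrix genes CD14, CD83, FCGR1A, MMP10 and MMP12, and ABCA1, DGKZ, MEI1 and PPARG.

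Lysosome genes had 1 of 26 higher and 1 lower, and oxidative phosphorylation genes 3 of 23 higher and 2 lower, shares at or under those of all genes. Markers of cells other than macrophages had 2 higher and 0 lower of 6 in the lymphocyte list, 0 higher and 1 lower of 3 in the erythroid, epithelial, fibroblast and endothelial list, 1 and 1 of 8 in the dendritic list and 2 and 0 of 7 in the granulocyte list. The mean level of the 14 lymphocyte markers was 5.72 to 5.85 at 3 h and 5.64 to 5.79 at 1.5 h, and that of the 12 granulocyte markers 7.60 to 7.73 at 3 h and 7.52 to 7.65 at 1.5 h. The part of such cells in the changes above was not tested.

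Within each time the replicates fell in sets. The first principal component of the residuals held 33.7% of their variance and split replicates 1 to 3 from replicates 4 to 6 at both times. The sides were reversed between the times, as 3 h replicates 1 to 3 lay with 1.5 h replicates 4 to 6. Between replicates 1 to 3 and replicates 4 to 6 of the same time, 1667 genes (16.4%) were called at 3 h and 2696 (26.5%) at 1.5 h. Interferon-stimulated genes moved with these sets. Their mean level was 8.09 to 8.27 on 3 h replicates 1 to 3 and 7.65 to 7.76 on 3 h replicates 4 to 6, against 7.59 to 7.75 on 1.5 h replicates 1 to 3 and 8.29 to 8.35 on 1.5 h replicates 4 to 6. The order of the sets was thus reversed between the times, and MX1, an antiviral GTPase, read 9.11 to 10.59 at 3 h and 8.81 to 10.79 at 1.5 h, a difference of -0.03 (SE 0.40, adjusted p = 0.962). Of 31 interferon-stimulated genes 1 was higher and 3 were lower, with a median of -0.03 that was 0.62 between replicates 1 to 3 of the 2 times and -0.67 between replicates 4 to 6.

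The medians of chaperones and MAP kinase inhibitors kept their sign across the sets, while those of chemokines and mitosis genes did not. The chaperone median was 0.17 to 0.31 in the 4 comparisons of a set at 3 h with a set at 1.5 h, and that of the MAP kinase inhibitors -0.41 to -0.24. Over the same 4 comparisons the chemokine median was -0.49 to 0.12 and that of mitosis genes -0.16 to 0.21. Of the 2588 called genes 2525 (97.6%) had the same sign in all 4, as did 49.1% of all genes tested. A called gene must differ on average, so this share describes the sets and is no support for the calls. In a fit of the DMSO arrays of 1.5 and 3 h alone, 3043 genes were called without a block, 1545 higher and 1498 lower. With the set as a block in that fit 3636 were called, 1882 higher and 1754 lower. The block joins arrays of the same replicate numbers at both times, although the sides of the sets were reversed between the times. Its calls are therefore not free of differences between the sets. What the sets are was not given in the sources used here.

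PPARG and its targets check the labels, since RSG but not DMSO should act on them. PPARG itself had -0.34 (SE 0.08, adjusted p = 0.00235), with 10.98 to 11.19 at 3 h and 11.32 to 11.57 at 1.5 h. PDK4, which turns cells from glucose to fatty acids and is a textbook target, read 8.21 on the array labelled DMSO 3 h replicate 4, 6.88 on replicate 1 and 4.72 to 5.22 on the other 4, against 4.75 to 5.39 at 1.5 h. ANGPTL4, an inhibitor of lipoprotein lipase, read 8.15 and 7.96 on replicates 4 and 1, 5.56 to 6.32 on the other 4, and 5.81 to 6.15 at 1.5 h, and PLIN2, which coats lipid droplets, 14.54 and 13.77, then 13.00 to 13.18, against 13.13 to 13.46. These levels on replicates 4 and 1 go against a DMSO label. RSG arrays at 3 h had PDK4 at 7.62 to 8.45, other than the array labelled RSG 3 h replicate 2, at 4.95.

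Between the groups as labelled these targets were not called, with 0.78 for PDK4 (SE 0.50, adjusted p = 0.253) and 0.61 for ANGPTL4 (SE 0.45, adjusted p = 0.327). Without the array labelled DMSO 3 h replicate 4, 1149 genes were higher and 1084 lower, 2152 of the 2588 calls remained, and the sign of all 2588 was kept. Without replicates 1 and 4 together 824 were higher and 677 lower, 1470 of the calls remained, and again 2588 kept their sign. Among the 3 h arrays left in that fit only replicate 2 had low background. Without replicate 4 alone HSPA1B had 1.45, TLR1 -1.70, KLF2 -1.32 and MT1G 1.20. In that fit 9 chaperones were higher and 11 MAP kinase inhibitors lower.

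The same interval in RSG cells shares no array with the DMSO comparison, and its changes were like those in DMSO. Background over 75 was also found on RSG 3 h replicates 1, 3, 4 and 5 (82.3 to 93.4) and on no RSG array at 1.5 h. High background thus went with 3 h in both treatments, and its part in the likeness was not tested. On low-background arrays alone, which left RSG 3 h replicates 2 and 6, 45 genes were called in RSG. Replicate 2 is the RSG array with low PDK4. In RSG 1084 genes were higher (10.6%) and 763 lower (7.50%) at 3 h, a share of 58.7% higher among the calls that was 77.5% with the table scaled by the authors and 76.0% with raw signal scaled to a common mean. By neqc values 1369 genes were called in both, which is 52.9% of the DMSO calls and 74.1% of the RSG calls, with 0 in opposite directions. Of the 2588 genes called in DMSO 2569 (99.3%) had the same sign in RSG, as did 82.1% of all genes. Across the 10179 genes the differences correlated with r = 0.86 (rho = 0.84), a description over genes that are not independent and that were normalized together. HSPA1B had 1.44 in DMSO and 1.21 in RSG, HSPH1 0.90 and 1.00, MT1G 1.16 and 1.08, TLR1 -1.70 and -1.58, ABCA1 -1.34 and -1.44, and CXCL8 -0.93 and -1.06. A test of the difference of the 2 time effects called 0 genes by limma, with 115 below 0.05 before adjustment. Its median SE was 0.18, so differences of the size of most called changes could be missed.

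Among genes called in DMSO the difference of the effects was at most 0.86 in size. DGKZ, the lipid kinase, had 0.99 in DMSO and 0.34 in RSG. Among the 5 genes of smallest p for the difference, of which a part is given, MEI1, a meiosis gene, had 0.31 and -0.13 (adjusted p = 0.999). RPS6KA5, a kinase of histone H3, had 0.02 and -0.61 (adjusted p = 0.999). FANCC, a Fanconi anaemia protein, had -0.48 and 0.16 (adjusted p = 0.999), and since 0 of the DMSO 3 h arrays detected it, its fall there is given as at least 1.14-fold.

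**Figure D4:**
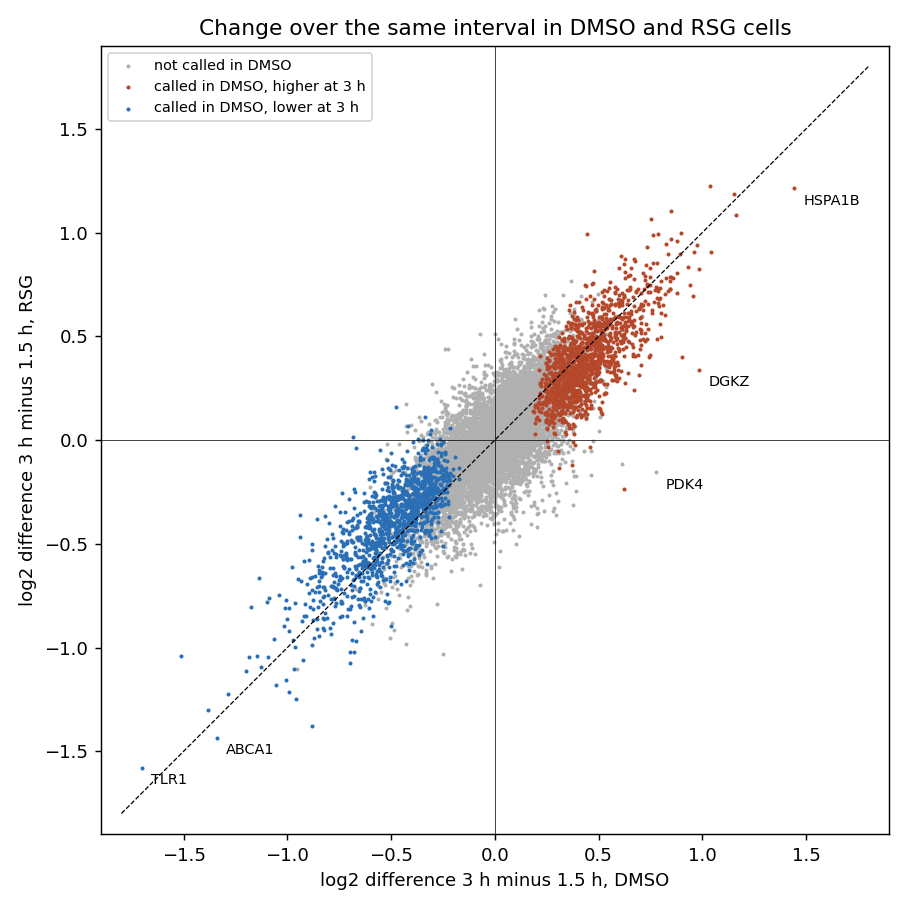
Each point is 1 gene, with its log2 difference of 3 h minus 1.5 h in DMSO cells on the x axis and in RSG cells on the y axis, coloured by its call in DMSO. The points lie along the dashed line of equal change (r = 0.86), with PDK4, at 0.78 and -0.16, off it. PDK4 was high on DMSO 3 h replicates 1 and 4 and low on RSG 3 h replicate 2, arrays of doubtful label.

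Set in the whole DMSO course of 0.5, 1.5, 3, 8 and 12 h, the interval held different stretches of the genes' paths. These values share the arrays of 1.5 and 3 h and are given with no test, and 4 arrays are used at 12 h, since 2 others stood apart from the series. HSPA1B read 8.44, 8.60, 10.05, 10.93 and 10.28 on average at the 5 times, and HSPA1A 7.34, 7.30, 8.10, 10.24 and 10.08, so that both left their early level only after 1.5 h. MT1X was highest at 3 h, with 10.19, 10.90, 11.69, 10.20 and 9.90. CCNE1 went on upward, with 7.71, 7.91, 8.65, 9.34 and 9.84.

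Among the falls, CXCL8 was highest at 0.5 h, with 12.16, 11.62, 10.69, 9.78 and 9.51. DUSP1 had made most of its fall by 1.5 h, with 10.20, 8.68, 7.97, 7.77 and 7.65. KLF2, with 7.30, 7.49, 6.20, 5.74 and 5.31, and TLR1, with 8.18, 8.18, 6.47, 7.07 and 7.10, were level at 0.5 and 1.5 h, and TLR1 was lowest at 3 h.

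**Figure D5:**
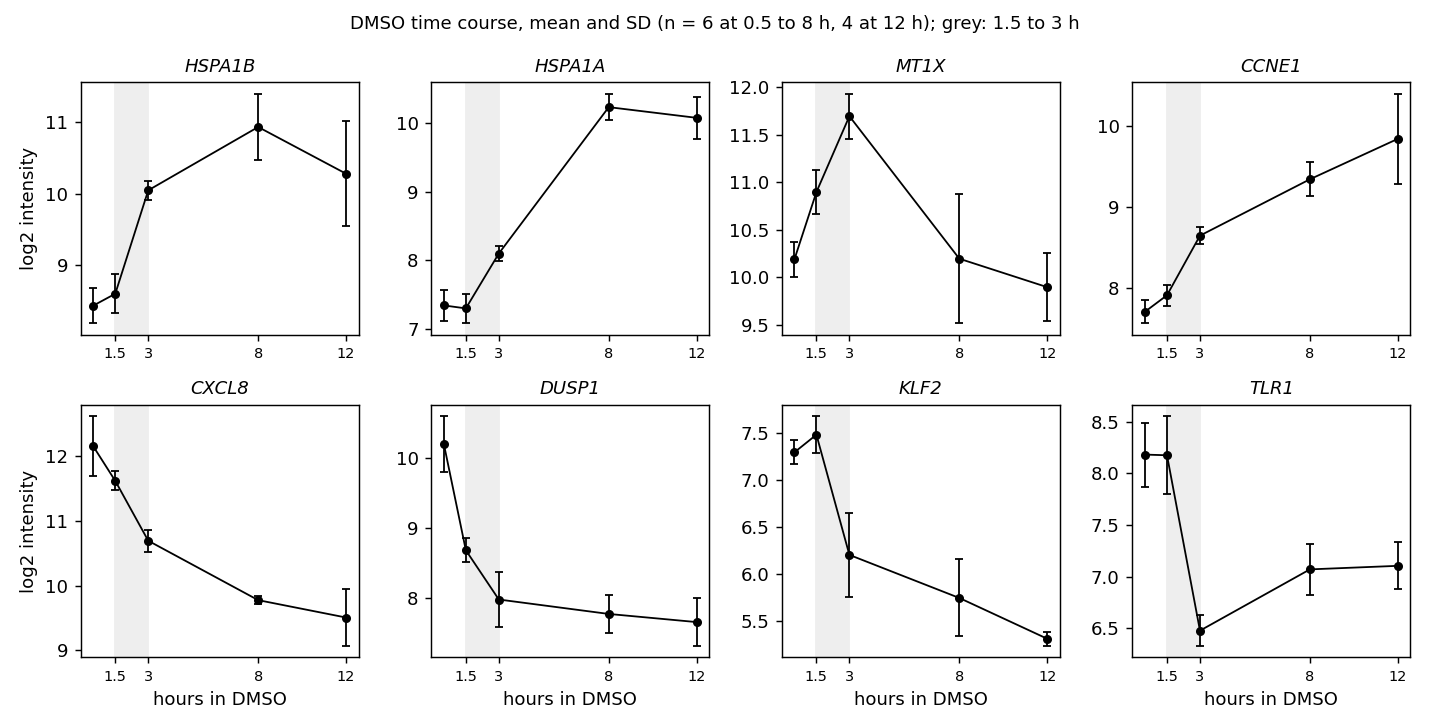
Mean log2 intensity and SD of 8 genes against hours in DMSO (6 arrays at 0.5 to 8 h, 4 at 12 h), with the interval of 1.5 to 3 h in grey. HSPA1B and HSPA1A rise from 1.5 h to 8 h, MT1X is highest at 3 h (11.69), CXCL8 and DUSP1 are highest at 0.5 h, and TLR1 is lowest at 3 h (6.47).

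Letters of 4 other elements were about as frequent in windows of genes that rose as in those that fell. Windows were found for 1136 of the 1360 that rose and 1019 of the 1228 that fell. The cyclic AMP element TGACGTCA was in 3.43% of windows that rose, 3.14% that fell and 3.22% of all tested, and the AP-1 letters TGANTCA in 3.70%, 4.91% and 4.45%. CC followed after 6 bases by GG, a loose form of the serum response element, was in 92.3%, 89.3% and 89.8%, and GGG followed after 5 bases by CC, a loose form of the NF-kB site, in 76.6%, 72.1% and 72.8%. The last pair is common enough in any window that their shares say little.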

How the data were processed

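Total RNA of THP-1 cells had been extracted with RNeasy columns, converted to biotinylated cRNA and hybridized to Illumina bead arrays. Of 59 arrays, 12 were compared here. The deposited signal table gives, per the file headers, probe intensities averaged over beads that the authors had neither background-corrected nor scaled. Beside each stands a deposited detection p-value, that is how often negative controls outshone the probe. Another deposited table holds an intensity the authors had background-subtracted and scaled to a common array mean, and it served as an alternative. The software versions and genome build of the probes were not given in the sources used here.

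Raw intensities of all 59 arrays were normalized with neqc (limma 3.58.1, R 4.3.3), which corrects background from the detection p-values, adds an offset of 16, quantile-normalizes and takes log2. Of 24526 probes in both tables, 21834 had 1 gene symbol, 0 had several and 2692 had none in the platform annotation. Symbols were updated through Entrez IDs to RefSeq (GRCh38.p14). Probes with a detection p under 0.01 on 5 or more of the 12 arrays were kept (13273), unnamed ones were dropped (12072 left) and the brightest probe stood for a gene, which gave 10179 genes. Where a called gene had further kept probes, all had the same sign for 318 of 389 (81.7%).

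Group means were fitted in limma over 35 arrays, those of DMSO and RSG at 0.5, 1.5 and 3 h, with moderated two-sided tests and Benjamini-Hochberg adjustment over all genes. The fit was tested on simulated data first. Arrays were grouped by label. The members and the gene lists were chosen with earlier results of these data known, so no list is independent evidence. Named genes were the 12 called genes that rose most and the 12 that fell most (detected on 50% or more of the arrays at the time with the higher level), up to 4 called and 2 uncalled members of each list, targets of PPARG, and the 5 genes of smallest p for the difference of the time effects. From these the text names a part, and HSPA8, DNAJB1, BAG3, CYP51A1, SQLE, HSPA4, HSP90AA1, MT1F, MT1H, MT1X, MCM5, FOS and MX1 were added after their values had been seen. List members with no probe on the array (55) were left out. The number of arrays limits the precision.

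Replicate numbers are shared between groups, but arrays of the same number did not deviate together (mean residual correlation -0.12, and 0.03 for other numbers), so they were not paired. Alternatives changed the arrays in the fit, the normalization, the probe filter, the choice of probe, the variance model and the fold threshold, or left out 1 array at a time. Those added after the data were seen used only arrays of low background, sets of replicates (also as a block), and fits without arrays of doubtful label.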

Additional observations from a re-analysis of the deposited data

Results flagged for a closer look

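Of the 184 groups of 6 arrays examined for the genes named (DMSO 3 h and DMSO 1.5 h for each gene), 11 held 1 array far from the other 5 by Dixon's ratio of gap to range, and chance alone gives about 1 in 20. At 3 h the array labelled replicate 4 stood apart for DNAJB1 (8.98, others 9.36 to 9.51, ratio 0.722), JUN (10.68, others 10.25 to 10.38, ratio 0.700) and MAP3K8 (7.88, others 6.50 to 6.95, ratio 0.676). Replicate 1 of 3 h, the other array with high PDK4, stood apart for MVD (8.57, others 8.21 to 8.29, ratio 0.778), IRF2BPL (7.80, others 8.09 to 8.14, ratio 0.853), RGS16 (9.36, others 8.98 to 9.10, ratio 0.681) and BAX (the highest, others 10.25 to 10.47, ratio 0.715). Replicate 3 of 3 h read 4.68 for LYPLA1 (others 5.07 to 5.27, ratio 0.674), and replicate 2 read 14.15 for CSF1R (others 14.09 to 14.11, ratio 0.732). At 1.5 h replicate 3 read 8.46 for HSPA4 (others 9.23 to 9.38, ratio 0.832) and replicate 5 read 5.99 for MEI1 (others 6.40 to 6.47, ratio 0.863). The sources of these arrays' values were not tested.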

How the results depend on the processing

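Of the 79 called genes named, 79 kept their sign in each alternative run, and 39 were called in every alternative other than those that left out 1 array or compared sets of replicates. With all 59 arrays 37 of the 79 lost their call, on low-background arrays 10 and without 3 h replicates 1 and 4 together 9. The count of calls was 1283 for DMSO and 758 for RSG with all 59 arrays, and 578 and 484 at a fold of 1.5 or more. On low-background arrays alone, which left 3 of the 3 h DMSO arrays (replicates 1, 2 and 4), it was 1626 for DMSO and 45 for RSG. Of these 3, replicates 1 and 4 are of doubtful label. Leaving out 1 array gave 1836 to 2882 for DMSO (fewest without 1.5 h replicate 4), 982 to 2068 for RSG (fewest without 1.5 h replicate 2) and 0 to 0 for the difference of the time effects. From the RSG arrays alone 1031 were called. Without DMSO 3 h replicates 1 and 4 there were 1501 calls. Set against set, there were 4497 calls between 3 h replicates 1 to 3 and 1.5 h replicates 4 to 6, 1413 between 3 h replicates 4 to 6 and 1.5 h replicates 1 to 3, 2396 within replicates 1 to 3 and 4715 within replicates 4 to 6. From the DMSO arrays of 1.5 and 3 h alone 3043 genes were called without a block. With the sets of replicates as a block in that fit, added after the data were seen, 3636 were called. Of the 79 called genes named, 0 lost their call there. With the side of the principal component as a block 3873 were called. Within replicates 1 to 3 MX1 had 1.42 (adjusted p = 0.00109), the reverse of its difference over all arrays. With array weights the difference of the time effects called 1 gene, FANCC (-0.89, adjusted p = 0.0443), the DMSO change minus the RSG change. With the replicate block there were 2338 calls in DMSO and 1497 in RSG, 2322 of the 2588 remained, and the calls of HSPA4 and HSP90AA1 were lost (adjusted p = 0.0595 and 0.0562). In no pair of the same number was the residual correlation over 0.1, so this block is not a pairing. A block by background level could not be fitted, as no 1.5 h DMSO array had high background. The causes of these shifts were not tested. Signal near background limits the sizes given for LYPLA1, TSN, ZNF85, STARD4, GCLC, CIART and FANCC.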
